A study of Mus musculus with 8 samples.

Results

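Genes of nuclear factor kappa B (NF-kB) signalling were followed in whole livers of mice with diet-induced nonalcoholic steatohepatitis (NASH). The 10 genes, of 40838 rows in the count table, include the NF-kB subunit genes Nfkb1, Nfkb2 and Relb and the inhibitor (IkB) genes Nfkbia and Nfkbie. The rest are the atypical IkB genes Nfkbiz and Bcl3, the feedback gene Tnfaip3, and the response genes Tnfaip2 and Icam1. Nfkbiz and Tnfaip2 were selected on their CPM in these same libraries, which an earlier look had found lower in the Lpcat3 group with no overlap of the groups, and the others were added for their known roles. The comparison between the groups is therefore given for these genes as a description, without a p-value.

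All 8 livers came from C57BL/6 mice that ate a NASH diet for 16 weeks in all and received an adeno-associated virus (AAV) after the first 7 weeks, so that 9 weeks of diet followed the injection. In the Lpcat3 group (4 livers) the virus carried Lpcat3, which encodes an enzyme that puts polyunsaturated fatty acids into membrane phospholipids. In the eGFP group (4 livers) it carried enhanced green fluorescent protein. Both used the TBG promoter, which is active in hepatocytes, so the vector acts on that cell type while RNA was taken from the whole organ, and both groups share the diet and the virus. Diet-free or virus-free livers were not analysed here, and the labels do not state that the libraries came from separate animals, and any p-value then reflects library-to-library spread alone, part of which may be technical. The animals' age and sex are not stated either.

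NF-kB proteins are transcription factors that wait in the cytoplasm bound to inhibitors of the IkB family. Signals from tumour necrosis factor, interleukin-1 or bacterial products activate the IkB kinase complex, the inhibitor is destroyed and the factor enters the nucleus, where it switches on genes of inflammation, among them those of its own inhibitors. In liver the pathway works in Kupffer cells and other macrophages, in endothelial cells and in hepatocytes themselves, where it also restrains cell death. Nfkbia and Tnfaip3 are textbook negative feedback genes, while Nfkbiz and Bcl3 encode atypical IkB proteins that act in the nucleus together with the p50 or p52 subunit.

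NF-kB dimers bind kappaB sites, short sequences with guanines at one end and cytosines at the other. The sequence around the start sites of the 10 genes was read from RefSeq promoter windows of the build GRCm38.p6, each covering 250 bases before and 50 bases after a start. Windows matched 7 of the 10 genes and 10 start sites. Windows with the kappaB consensus, in which a purine follows the leading guanines and pyrimidines come before the closing cytosines, were found for 6 of these 7 genes on either strand (Tnfaip2, Tnfaip3, Nfkbia, Nfkbie, Nfkb2 and Bcl3), where 11.6% of the 13011 tested genes with a window had one in any window. By window, 8 of the 10 held one, against 8.46% of all 32851 windows. The 8 include 3 windows of Nfkb2, of which 2 overlap and share a match that is counted in both. The looser motif GGGNNNNNCC, of which the consensus is a special case, occurred on either strand in a window of each of the 7, and in 50.8% of all windows. Most of the 10 genes were added for known roles in NF-kB signalling, so a higher share of matches was partly built into the choice. The shares are a description and test nothing. A match is only a run of letters, and nothing in these data shows that a factor was bound there.

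Shown here are a window of Tnfaip2, the gene with the largest difference between the groups among the 10, and windows of the feedback genes Nfkbia and Tnfaip3 and of the subunit gene Nfkb2, each 5′ to 3′ with matches to the kappaB consensus in capitals. Overlapping matches share 1 run of capitals, and a match on the opposite strand is spelled as it reads on the printed strand.
Tnfaip2 (chr12:111442411-111442710, plus strand): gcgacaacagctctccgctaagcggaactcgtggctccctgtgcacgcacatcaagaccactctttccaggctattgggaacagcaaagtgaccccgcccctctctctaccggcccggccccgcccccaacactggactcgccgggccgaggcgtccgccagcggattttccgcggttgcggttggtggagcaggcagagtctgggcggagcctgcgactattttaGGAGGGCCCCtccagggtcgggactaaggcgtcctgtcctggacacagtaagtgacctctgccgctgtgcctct
Nfkbia (chr12:55492598-55492897, minus strand): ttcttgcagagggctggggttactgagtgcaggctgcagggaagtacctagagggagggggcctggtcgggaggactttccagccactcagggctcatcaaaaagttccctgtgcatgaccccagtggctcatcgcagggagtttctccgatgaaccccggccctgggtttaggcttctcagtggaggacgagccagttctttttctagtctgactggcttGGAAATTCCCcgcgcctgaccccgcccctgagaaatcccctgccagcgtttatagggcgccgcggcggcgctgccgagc
Tnfaip3 (chr10:19015361-19015660, minus strand): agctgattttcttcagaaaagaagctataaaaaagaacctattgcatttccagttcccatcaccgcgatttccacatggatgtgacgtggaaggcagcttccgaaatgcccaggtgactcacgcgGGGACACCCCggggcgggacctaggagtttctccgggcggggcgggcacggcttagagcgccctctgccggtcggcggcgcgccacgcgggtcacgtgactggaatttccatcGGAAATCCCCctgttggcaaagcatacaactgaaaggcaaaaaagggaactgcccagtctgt
Nfkb2 (chr19:46304487-46304786, plus strand): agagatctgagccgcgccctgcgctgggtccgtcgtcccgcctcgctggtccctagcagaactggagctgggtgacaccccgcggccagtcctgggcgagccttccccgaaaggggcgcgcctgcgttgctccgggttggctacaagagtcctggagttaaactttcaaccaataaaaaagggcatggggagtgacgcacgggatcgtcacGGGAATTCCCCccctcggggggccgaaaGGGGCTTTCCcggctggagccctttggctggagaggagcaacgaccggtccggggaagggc
The match in the Tnfaip2 window, GGAGGGCCCC, began 24 bases before the start site. In the Nfkbia window GGAAATTCCC began 29 bases before it, and in the Tnfaip3 window GGGACACCCC began 125 and GGAAATCCCC 12 bases before it. The Nfkb2 window held GGGAATTCCC and the overlapping GGAATTCCCC at 39 and 38 bases before the start, and GGGGCTTTCC at 11 bases before it.

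Library totals ran from 22433625 to 25651874 counts. Lpcat3 itself, which checks the labels, was at 274, 401, 465 and 311 CPM (counts scaled to a common, TMM-adjusted library size) in the Lpcat3 livers and at 158, 148, 133 and 173 CPM in the eGFP livers, with no overlap, vector and endogenous transcripts counted together (exact two-sided permutation p = 0.0286, the smallest that 70 relabellings allow). In the edgeR fit over all genes its log2 fold change was 1.25 (SE 0.17) and its adjusted p 0.164, above the threshold of 0.05, so the delivered gene is not the 1 gene of 17438 that edgeR called. With DESeq2 its adjusted p was 9.77e-09. The tissue label was borne out by 10 of 10 hepatocyte markers past the filter on low counts, with a summed level of 77400 to 108000 CPM with Lpcat3 and 64600 to 94400 CPM with eGFP. On the main axis of variation, with 40.9% of the variance, Lpcat3 replicate 3 (at 50.96) and eGFP replicate 3 (at -46.11) stood at opposite ends. Results for the 10 genes are also given without eGFP replicate 3 or without both. Summaries of the pathway and marker lists are given with both libraries only, so how far they rest on these livers was not tested. Each sample code includes 1290, 1317, 1344 or 1345, and what these stand for is not stated. Codes 1290 and 1317 hold 3 of 4 eGFP libraries but 1 of 4 Lpcat3 libraries, and codes 1344 and 1345 hold the rest. Differences are therefore also given within codes 1290 and 1317 and within codes 1344 and 1345. The former have Lpcat3 replicate 1 as the only Lpcat3 library, and the latter have eGFP replicate 4 as the only eGFP library. Code 1317 holds only eGFP replicate 3, so values within codes 1290 and 1317 include that liver.

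The genes are identified in the table by NCBI gene number, 18033 for Nfkb1 (chromosome 3), 18034 for Nfkb2 (19), 19698 for Relb (7), 18035 for Nfkbia (12), 18037 for Nfkbie (17), 80859 for Nfkbiz (16), 12051 for Bcl3 (7), 21929 for Tnfaip3 (10), 21928 for Tnfaip2 (12) and 15894 for Icam1 (9). Each of the 10 genes passed the filter on low counts, with no fewer than 59 counts (Relb) in any library. Per kilobase of exon, over all 8 libraries, Nfkbia was the most abundant at 16.8 ± 1.74 CPM per kilobase (SD), then Bcl3 at 10.7 ± 5.22 and Tnfaip2 at 4.88 ± 1.52 CPM per kilobase. Nfkbiz at 3.87 ± 0.629 and Icam1 at 3.79 ± 1.08 CPM per kilobase were next, followed by Nfkb1 at 2.65 ± 0.659, Nfkb2 at 2.61 ± 0.687 and Tnfaip3 at 1.77 ± 0.635 CPM per kilobase. The lowest levels were those of Nfkbie at 1.29 ± 0.23 and Relb at 1.26 ± 0.544 CPM per kilobase. The ranges of every pair of neighbours in this order overlapped, whereas Nfkbia lay above Nfkbiz in every library. Exon lengths are those of the GENCODE M21 annotation, which is not the build of the counts, and serve for this order only.

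All 10 genes had a lower fitted mean in the Lpcat3 group, with a median log2 fold change of -0.41. Over all 17438 genes tested the median was -0.01, and 51.5% had a negative value. The count and the median of the 10 include Nfkbiz and Tnfaip2, which were selected for being lower in these same libraries. Values of the other 8 ran from -0.62 (Relb) to -0.07 (Nfkbia), and their median was not computed. The direction was uneven over the sample codes. Within codes 1290 and 1317 all 10 were negative with a median of -0.37, Nfkbia at 0.0 when rounded. These values have Lpcat3 replicate 1 as the only Lpcat3 library and include eGFP replicate 3. Within codes 1344 and 1345, with eGFP replicate 4 alone, 6 of 10 were negative with a median of -0.01. There Nfkbia and Nfkb1 were at 0.0 when rounded. In a fit that included the code division 9 of 10 were negative with a median of -0.21. Past the edgeR quasi-likelihood test (adjusted p under 0.05) were 0 of the 10, where the background is 0.00573% of all genes, and DESeq2 called 2 of the 10, where the background is 0.298%. Those 2 were Nfkbiz and Tnfaip2, selected on the same values, so nothing is read from these calls. The groups did not overlap for the same 2 genes, where 4.16% of all genes tested did not overlap in either direction and 2.24% did not with Lpcat3 lower. That separation is what brought these 2 genes in and is no result about them. For the other 8 genes the groups overlapped.

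**Figure D1:**
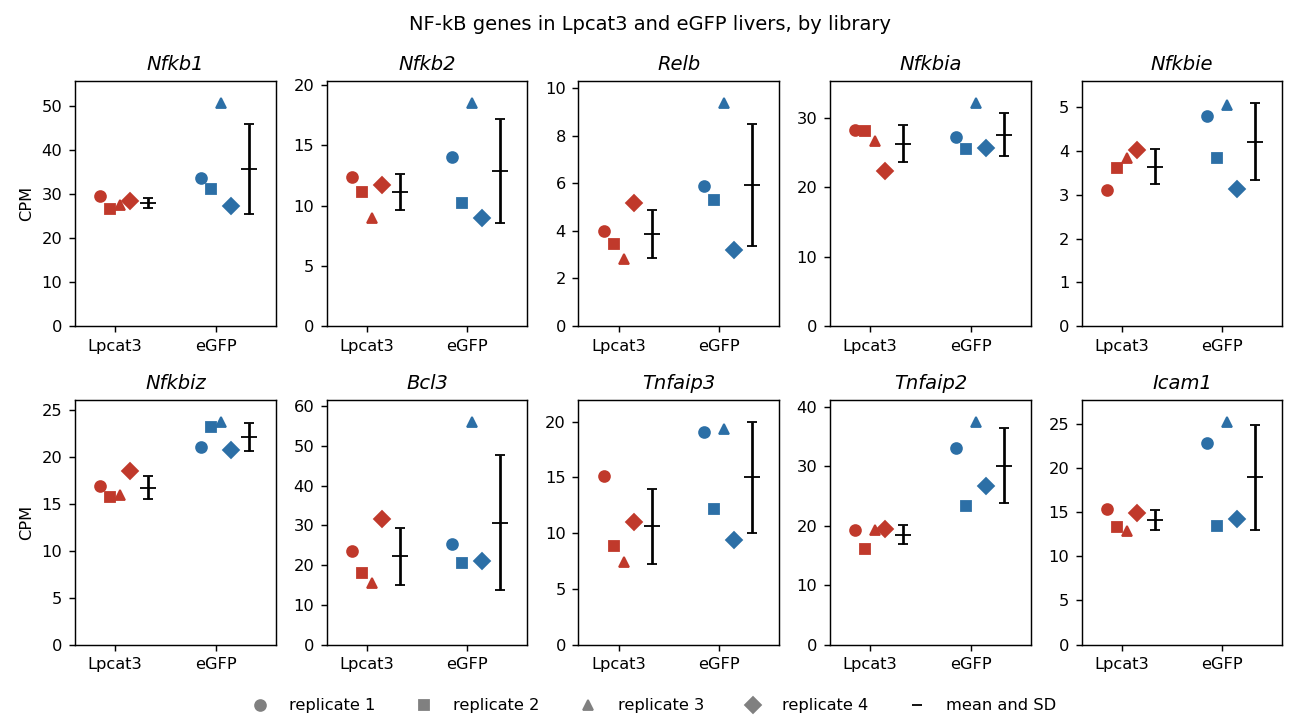
Level of each of the 10 genes in CPM (vertical axis, from 0) in 4 Lpcat3 livers and 4 eGFP livers; each symbol is 1 library and the black bar gives mean and SD. The Lpcat3 libraries lie below every eGFP library for Nfkbiz and Tnfaip2, the groups overlap for the other 8 genes, and the triangle of eGFP replicate 3 is the highest point in each of the 10 panels.

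Nfkb1 encodes p105, the precursor of the p50 subunit. It was at 29.5, 26.6, 27.5 and 28.4 CPM in the Lpcat3 livers and at 33.8, 31.3, 50.7 and 27.4 CPM in the eGFP livers. The 4 Lpcat3 livers lay close together, and 1 eGFP liver lay among them while eGFP replicate 3 stood far above the rest. Its log2 fold change was -0.35 (SE 0.17) with that library and -0.14 (SE 0.08) without it.

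Nfkb2 encodes p100, the precursor of the p52 subunit and the substrate of the alternative, RelB-dependent branch. It was at 12.4, 11.1, 8.97 and 11.7 CPM in the Lpcat3 livers and at 14.0, 10.2, 18.5 and 8.96 CPM in the eGFP livers. The lowest level of all was thus in an eGFP liver, nearly level with that of Lpcat3 replicate 3. Means were 11.1 ± 1.49 CPM with Lpcat3 and 12.9 ± 4.31 CPM with eGFP, a log2 fold change of -0.22 (SE 0.22) that was 0.0014 (SE 0.17) without eGFP replicate 3 and 0.23 within codes 1344 and 1345.

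Relb, the partner of p52, was the least abundant of the subunit genes in CPM. It was at 4.0, 3.45, 2.83 and 5.17 CPM in the Lpcat3 livers and at 5.89, 5.31, 9.36 and 3.18 CPM in the eGFP livers. Here eGFP replicate 4 lay below 3 of the 4 Lpcat3 livers. Relb had a log2 fold change of -0.62 (SE 0.31), or -0.31 (SE 0.26) without eGFP replicate 3, and it was -0.72 within codes 1290 and 1317 but 0.21 within codes 1344 and 1345.

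Nfkbia encodes IkB-alpha, the inhibitor that is destroyed and rapidly made again when NF-kB is activated. It was at 28.2, 28.1, 26.6 and 22.4 CPM in the Lpcat3 livers and at 27.3, 25.5, 32.1 and 25.6 CPM in the eGFP livers. The groups were interleaved, with a log2 fold change of -0.07 (SE 0.10), the smallest of the 10 in size, and 0.0068 (SE 0.09) without eGFP replicate 3.

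Nfkbie encodes IkB-epsilon, a slower member of the same inhibitor class. It was at 3.1, 3.62, 3.84 and 4.02 CPM in the Lpcat3 livers and at 4.79, 3.84, 5.05 and 3.14 CPM in the eGFP livers. Codes 1290 and 1317 alone gave a log2 difference of -0.54 and codes 1344 and 1345 one of 0.28, opposite in sign, and the fitted log2 fold change over all libraries was -0.21 (SE 0.17), or -0.11 (SE 0.18) without eGFP replicate 3.

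Nfkbiz encodes IkB-zeta, an atypical nuclear IkB protein needed for the induction of secondary response genes such as Lcn2 and Il6 in macrophages. It was at 16.9, 15.7, 15.9 and 18.5 CPM in the Lpcat3 livers and at 21.0, 23.1, 23.7 and 20.7 CPM in the eGFP livers. The gap between the highest Lpcat3 liver and the lowest eGFP liver was narrow beside the distance between the means of 16.7 ± 1.26 CPM with Lpcat3 and 22.1 ± 1.51 CPM with eGFP. Both groups were tight, with a coefficient of variation of 7.52% with Lpcat3 and 6.81% with eGFP. For Nfkbiz the log2 fold change was -0.40 (SE 0.08), and -0.37 (SE 0.08) without eGFP replicate 3. Codes 1290 and 1317 alone gave -0.42 and codes 1344 and 1345 gave -0.31.

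Bcl3, the other atypical IkB gene, whose product can turn p50 or p52 dimers into activators, was at 23.5, 18.1, 15.5 and 31.6 CPM in the Lpcat3 livers and at 25.3, 20.5, 56.1 and 21.0 CPM in the eGFP livers. Nearly all of the distance between the means of 22.2 ± 7.13 CPM with Lpcat3 and 30.7 ± 17.0 CPM with eGFP lay in eGFP replicate 3, without which the eGFP mean was 22.2 ± 2.63 CPM (n = 3). The log2 fold change was -0.47 (SE 0.35) over all libraries, -0.0013 (SE 0.23) without eGFP replicate 3 and -0.02 as a difference within codes 1344 and 1345.

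Tnfaip3 encodes A20, a ubiquitin-editing enzyme that shuts the pathway off upstream of the IkB kinases. It was at 15.1, 8.83, 7.38 and 11.0 CPM in the Lpcat3 livers and at 19.1, 12.2, 19.3 and 9.42 CPM in the eGFP livers. The eGFP livers fell into a high and a low pair, and the low pair lay among the Lpcat3 livers. Tnfaip3 had a log2 fold change of -0.50 (SE 0.28), or -0.36 (SE 0.30) without eGFP replicate 3, and the differences within codes were small, at -0.13 within 1290 and 1317 and -0.07 within 1344 and 1345.

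Tnfaip2, a gene induced by tumour necrosis factor whose product is known for a role in membrane protrusions, was at 19.2, 16.1, 19.2 and 19.5 CPM in the Lpcat3 livers and at 33.1, 23.3, 37.5 and 26.7 CPM in the eGFP livers. The Lpcat3 livers were close together with replicate 2 somewhat lower, while the eGFP livers spread over a wider range and all lay above them. Means were 18.5 ± 1.61 CPM with Lpcat3 and 30.1 ± 6.33 CPM with eGFP, so the Lpcat3 mean was 38.7% lower. The log2 fold change of -0.71 (SE 0.14) was the largest of the 10 in size, and it was -0.59 (SE 0.12) without eGFP replicate 3, -0.67 within codes 1290 and 1317 and -0.55 within codes 1344 and 1345.

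Icam1 encodes an adhesion molecule with which endothelium and hepatocytes hold leukocytes. It was at 15.3, 13.3, 12.9 and 14.9 CPM in the Lpcat3 livers and at 22.8, 13.4, 25.2 and 14.2 CPM in the eGFP livers. As with Tnfaip3, eGFP replicates 1 and 3 were high and eGFP replicates 2 and 4 lay within the Lpcat3 range. The log2 fold change was -0.42 (SE 0.20) and, without eGFP replicate 3, -0.25 (SE 0.18), with -0.37 within codes 1290 and 1317 and -0.05 within codes 1344 and 1345.

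**Figure D2:**
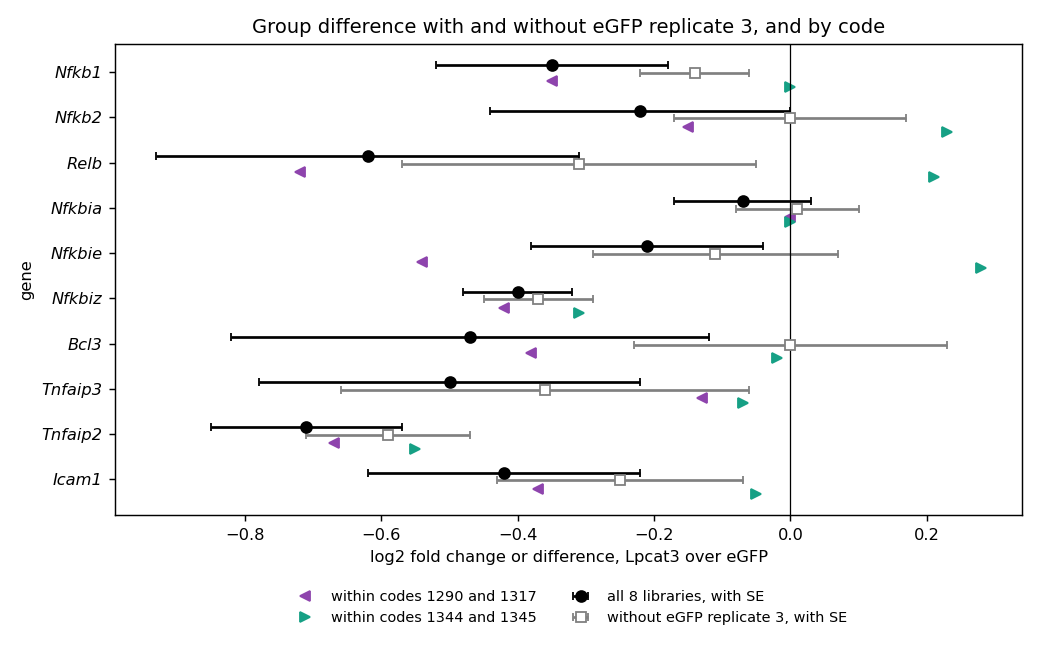
Log2 fold change of each gene, Lpcat3 over eGFP (horizontal axis), in the fit of all 8 libraries and in the fit without eGFP replicate 3, both with SE, beside the plain log2 difference within codes 1290 and 1317 and within codes 1344 and 1345. Nfkbiz and Tnfaip2 have values from -0.71 to -0.31 in all 4 settings. Both were selected for groups without overlap, so negative values in each setting were fixed in advance. The values of Nfkb2, Relb and Nfkbie within codes 1344 and 1345 are positive (0.23, 0.21 and 0.28).

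Taking the livers 1 by 1, eGFP replicate 3 was the highest library for 10 of the 10 genes, while it was the highest for 22.4% of all genes tested. The median of the 10 genes, as log2 CPM relative to the eGFP mean, was -0.25, -0.47, -0.48 and -0.27 in Lpcat3 replicates 1 to 4, against 0.12, -0.19, 0.45 and -0.37 in eGFP replicates 1 to 4. On this median eGFP replicate 4 lay among the Lpcat3 livers and eGFP replicate 2 just above them. Lpcat3 replicate 3 was the lowest library for 4 of the 10 genes (Tnfaip3, Relb, Bcl3 and Icam1), and for 20.8% of all genes tested. Without eGFP replicate 3 the median log2 fold change of the 10 genes was -0.20 with 8 of 10 negative, and without both libraries numbered 3 it was -0.16 with 7 of 10 negative.

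**Figure D3:**
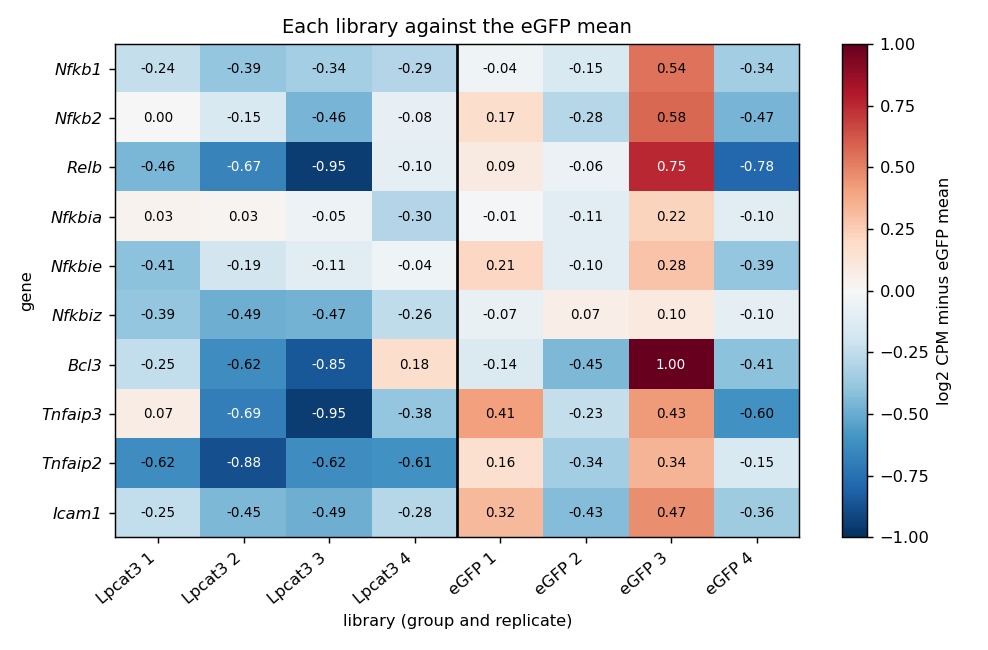
Log2 CPM of each gene (rows) in each library (columns, Lpcat3 livers left of the line) minus the gene's eGFP mean, red for higher and blue for lower. The column of eGFP replicate 3 is red for every gene, least for Nfkbiz (0.101) and most for Bcl3 (1.003), and that of eGFP replicate 4 is blue for every gene.

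Apart from the difference between the groups, the 10 genes varied together from liver to liver. Once each group's mean was subtracted, the mean Pearson r over the 45 pairs was 0.64 across the 8 libraries. Of these pairs 33 were above 0.5 and 1 was below 0. Over all pairs of genes tested the mean was 0.0005, but positive and negative r cancel in that mean. The share of all pairs above 0.5 was not computed, so whether these genes vary together more than other sets of genes was not tested. The 45 pairs share their libraries, and many rest on 1 liver. Without eGFP replicate 3 the mean r was 0.42, with 23 pairs above 0.5 and 7 below 0. Without any of the other libraries in turn it was 0.54 to 0.73. The closest pairs were Nfkb2 with Icam1 at 0.93 and Tnfaip2 with Icam1 at 0.91 (Spearman rho 0.83), and Nfkb2 with Relb was at 0.90. Nfkb2 had the highest mean r with the other 9 genes (0.78).

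The 2 genes whose groups separated were not alike in this respect. Nfkbiz followed Relb (r = 0.79, rho = 0.86) and Bcl3 (r = 0.73), but its r was 0.27 with Tnfaip2 and -0.16 with Nfkbia, the only negative pair. Among 12650 genes with at least 1 CPM and a regular symbol, the 4 with deviations most like those of Nfkbiz were Stx2 (r = 0.990), Tubgcp5 (0.988), Trim13 (0.972) and Vps26b (0.966), with rho of 0.81 to 0.93, and Tnfaip2 ranked 4093rd. For Tnfaip2 the 4 were Tbc1d10b (r = 0.987), Smc6 (0.986), Pik3r6 (0.985) and the receptor gene Cd40 (0.985), with rho of 0.90 to 0.98, and Icam1 ranked 47th. These are descriptions over 8 libraries with shared depth and shared outlying livers, and no p-value is attached.

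**Figure D4:**
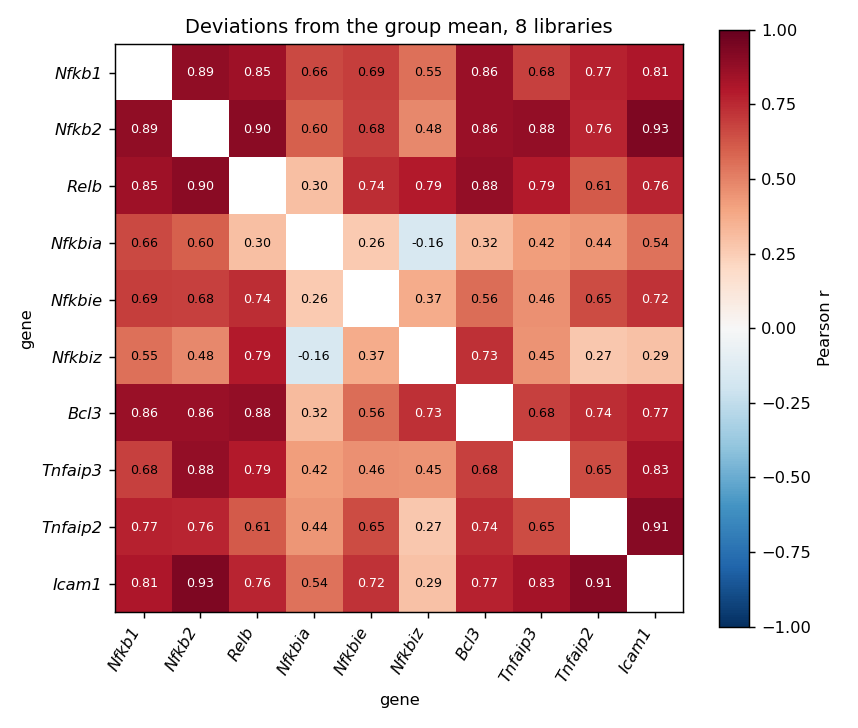
Pearson r between the 10 genes over 8 libraries, computed on log2 CPM after each group's mean was subtracted; each cell is 1 pair. Most cells lie above 0.5, those of Nfkbia and Nfkbiz are paler, and their shared cell holds the only negative value (-0.16).

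Around these genes, the rest of the pathway was read from lists of known members, 102 genes in all, of which 89 passed the filter. Past the edgeR test were 0 of the 89 in either direction, and 67 had a negative log2 fold change, with a median of -0.15 against -0.01 over all genes. At an unadjusted p under 0.05 edgeR counted 15 of them lower and 1 higher, where 5.18% of all genes tested were lower at that level and 8.48% differed in either direction, and DESeq2 called 0. Within codes 1290 and 1317, 63 of the 89 were negative, with a median of -0.1, and within codes 1344 and 1345, 52, with a median of -0.04.

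The remaining subunits and IkB proteins had a median log2 fold change of -0.07. Rela, which encodes the main activating subunit p65, was at 31.6 ± 2.64 CPM with Lpcat3 and 35.0 ± 8.15 CPM with eGFP. Rel, the c-Rel gene of lymphoid and myeloid cells, was at 22.5 ± 2.46 CPM with Lpcat3 and 23.5 ± 1.62 CPM with eGFP (SD, n = 4 each; edgeR adjusted p = 0.757 for Rela and 0.842 for Rel). Nfkbib, the IkB-beta gene, had a log2 fold change of 0.01 (SE 0.11), and Nfkbid, a further atypical IkB gene, one of -0.64 (SE 0.36), at 1.1 ± 0.333 CPM with Lpcat3 and 1.7 ± 0.833 CPM with eGFP.

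Kinases and adaptors had a median log2 fold change of -0.07 over 24 genes, 18 of them negative. Of the IkB kinase complex, the log2 fold change was 0.17 (SE 0.10) for Chuk and -0.13 (SE 0.17) for Ikbkg, neither past the edgeR test (adjusted p = 0.636 and 0.816), and Ikbkb was at 34.6 ± 2.75 CPM with Lpcat3 and 34.7 ± 2.06 CPM with eGFP. Tab2 and Irak1, adaptor and kinase of the interleukin-1 route, had log2 fold changes of -0.15 (SE 0.08) and 0.03 (SE 0.06). Map3k14, which encodes the NIK kinase of the alternative branch, was at 5.36 ± 0.894 CPM with Lpcat3 and 7.15 ± 1.75 CPM with eGFP (edgeR adjusted p = 0.591).

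Genes of ubiquitin editing or of restraint of the pathway had a median of -0.04, with 7 of 12 negative. The list also holds Rnf31, Rbck1 and Sharpin, so this is not the median of restraining genes alone. Cyld, a deubiquitinase, was at 36.7 ± 5.84 CPM with Lpcat3 and 36.8 ± 2.83 CPM with eGFP, and Tnip1, which encodes a partner of A20, at 9.74 ± 2.06 CPM with Lpcat3 and 11.9 ± 2.65 CPM with eGFP (edgeR adjusted p = 0.996 and 0.666). The most abundant of the list, Rnf11, Tax1bp1, Itch and Otud7b, had log2 fold changes of -0.16, 0.03, 0.10 and -0.26, none past the test.

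Activating ligands were scarce. Their median log2 fold change was -0.38 over 8 genes tested, and that of the receptors -0.43 over 13. Tnf was at 0.783 ± 0.206 CPM with Lpcat3 and 1.36 ± 1.09 CPM with eGFP (edgeR adjusted p = 0.671), and Il1b, the gene of interleukin-1 beta, at 2.27 ± 0.593 CPM with Lpcat3 and 4.88 ± 2.63 CPM with eGFP (adjusted p = 0.565). Il1a and Tnfsf12 had log2 fold changes of 0.04 and -0.01, Il18 was at 8.08 ± 1.85 CPM with Lpcat3 and 8.06 ± 1.68 CPM with eGFP, and for Il33 the log2 fold change was -0.87 (SE 0.37; edgeR adjusted p = 0.581). Il33 was at 2.59 to 3.62 CPM with Lpcat3, against 11.1 CPM in eGFP replicate 3 and 3.51 to 4.13 CPM in the other eGFP livers. Tnf and Il1b were likewise highest in eGFP replicate 3, at 2.75 and 8.06 CPM. Among receptors, Il1rap, Il1r1 and Ltbr had log2 fold changes of 0.15, -0.03 and 0.06, Tnfrsf1a, the main receptor for tumour necrosis factor, one of -0.24 (SE 0.11), and Tlr4, the endotoxin receptor, one of -0.43 (SE 0.13; edgeR adjusted p = 0.564).

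Other response genes had a median log2 fold change of -0.44, with 22 of 27 negative, close to that of the 10 genes. Of the 4 most abundant, 3 had a higher mean in the Lpcat3 group. Sod2, the mitochondrial superoxide dismutase, was at 243 ± 19.0 CPM with Lpcat3 and 221 ± 32.8 CPM with eGFP, Cflar, an inhibitor of death receptor signalling, at 137 ± 5.34 CPM with Lpcat3 and 129 ± 2.94 CPM with eGFP, and Cebpb, a transcription factor of the acute phase, at 63.6 ± 9.21 CPM with Lpcat3 and 48.6 ± 3.29 CPM with eGFP (edgeR adjusted p = 0.695, 0.665 and 0.564). Of the 6 chemokine genes in the list 0 passed the edgeR test, and the 2 named by rule were Cxcl1 at 5.1 ± 1.79 CPM with Lpcat3 and 10.6 ± 3.27 CPM with eGFP and Ccl2 at 1.4 ± 0.676 CPM with Lpcat3 and 3.55 ± 3.22 CPM with eGFP (edgeR adjusted p = 0.564 and 0.59). Ccl2 was at 8.35 CPM in eGFP replicate 3 and at 1.45 to 2.28 CPM in the other eGFP livers. Vcam1, an adhesion gene like Icam1, was at 40.8 ± 5.49 CPM with Lpcat3 and 43.2 ± 7.6 CPM with eGFP, a log2 fold change of -0.08 (SE 0.14).

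Of the genes known in macrophages to need IkB-zeta, 1 of 6 passed the filter on low counts. Lcn2, which encodes lipocalin 2 and is made by hepatocytes as well as neutrophils, was at 46.7 ± 24.8 CPM with Lpcat3 and 71.8 ± 20.1 CPM with eGFP, or -0.62 (SE 0.42) as a log2 fold change (edgeR adjusted p = 0.666). Il6 and Il12b lay under the filter, at means of 0.0587 and 0.288 CPM in the Lpcat3 group and 0.0473 and 0.355 CPM in the eGFP group, so a difference in them was not detectable at this depth.

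**Figure D5:**
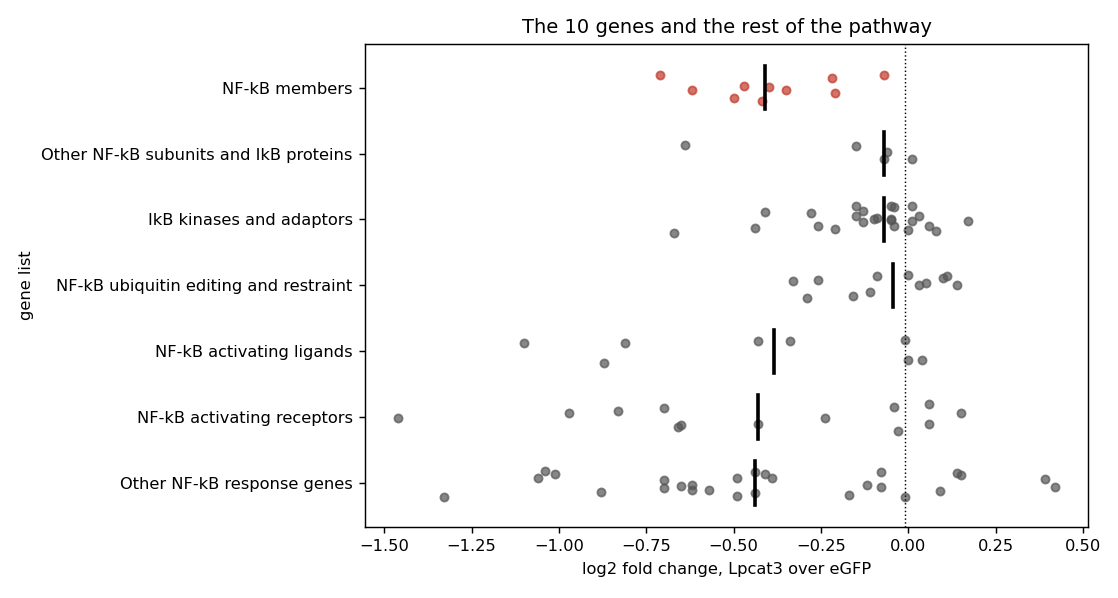
Log2 fold change, Lpcat3 over eGFP (horizontal axis), of each gene that passed the filter, by list (rows); black bars are list medians and the dotted line is the median of all genes (-0.01). The 10 genes (red) include Nfkbiz and Tnfaip2, selected for lower levels with Lpcat3, and have a median of -0.41. Ligands, receptors and other response genes lie near that median at -0.38 to -0.44. All medians here include eGFP replicate 3, and those of the other lists without it were not computed. The other subunits, kinases and ubiquitin editors lie at -0.07 to -0.04.

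Many of these genes are expressed by immune and endothelial cells, and in whole liver fewer such cells and less RNA per cell cannot be told apart. The summed level of 14 markers of macrophages and Kupffer cells was 410 to 567 CPM with Lpcat3 and 592 to 920 CPM with eGFP, with 12 of 14 negative in log2 fold change, 0 past the edgeR test and 0 at 0 in every library. At an unadjusted p under 0.05 edgeR counted 10 of these 14 lower, where 5.18% of all genes tested were. DESeq2 called 1 of the 14 lower (C1qc, a complement gene of macrophages), where it called 0.135% of all genes lower. Within codes 1290 and 1317, 12 of 14 were negative with a median of -0.34, and within codes 1344 and 1345, 14 of 14 with a median of -0.58. Markers of recruited and lipid-associated macrophages summed to 78.0 to 242 CPM with Lpcat3 and 133 to 348 CPM with eGFP (9 of 10 negative). The 78.0 CPM was in Lpcat3 replicate 3, and the other Lpcat3 livers were at 227 to 242 CPM. Of these 10 markers, 9 were negative within codes 1290 and 1317 (median -0.43) and 5 within codes 1344 and 1345 (median -0.09). Endothelial markers summed to 520 to 640 CPM with Lpcat3 and 623 to 694 CPM with eGFP (11 of 11 negative). Of these 11, 7 were negative within codes 1290 and 1317 (median -0.03) and 11 within codes 1344 and 1345 (median -0.22). Neutrophil markers, 4 of 8 of them past the filter, summed to 5.27 to 9.21 CPM with Lpcat3 and 7.76 to 22.5 CPM with eGFP, with the maximum in eGFP replicate 3. Markers of T and NK cells summed to 6.05 to 7.19 CPM with Lpcat3 and 5.11 to 13.3 CPM with eGFP (6 of 8 tested negative), those of B and plasma cells to 5.51 to 9.42 CPM with Lpcat3 and 7.64 to 12.1 CPM with eGFP (7 of 7), those of stellate cells and fibroblasts to 533 to 824 CPM with Lpcat3 and 689 to 842 CPM with eGFP (6 of 10), and those of cholangiocytes to 56.7 to 144 CPM with Lpcat3 and 55.3 to 104 CPM with eGFP (2 of 7). Of the 7 markers of B and plasma cells, 3 were negative within codes 1290 and 1317 (median 0.03) and 7 within codes 1344 and 1345 (median -0.43). The part of any of the cell types above in the values of the 10 genes was not tested.

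Whether counting used strand is not given in the sources used here. In the GENCODE M21 annotation, exons of Tnfaip2, Nfkb2, Bcl3 and Icam1 overlap exons of genes on the opposite strand, among them Psd at Nfkb2, so reads from those partners cannot be told apart from theirs and their counts are uncertain to that extent. No such overlap was found for Nfkbiz, Tnfaip3, Nfkbia, Nfkbie, Nfkb1 or Relb.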

How the data were processed

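RNA-seq of 8 livers was read from 1 table of counts per gene deposited by the authors, in raw counts with no normalization, as the values themselves show (whole numbers, totals of 22433625 to 25651874). Per the submitters' processing notes, bcl2fastq 2.20, DESeq2 and the build GRCm39 were used, while neither the aligner, the counter nor any use of strand is named in them. Gene identifiers matched a symbol in 39397 of 40838 rows, which held 99.51% of the counts, and every value column belonged to a labelled sample. No 2 libraries held identical values.

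Genes passing filterByExpr of edgeR 4.0.16 (R 4.3.3; minimum count 10) were fitted with TMM scaling and the robust quasi-likelihood test, Lpcat3 against eGFP, with Benjamini-Hochberg adjustment over 17438 genes, and the biological coefficient of variation was 16.9%. The SE of a log2 fold change was derived from that test's F statistic. CPM used the TMM-scaled totals, and log2 CPM a prior count of 2. The script was tested on simulated data. DESeq2 1.42.0, other scalings, no filter, a replicate block, the code division as a term, no robust estimation and fits leaving out libraries were the alternatives, and the correlations without libraries were added after seeing the data. The members and lists were chosen with earlier results of these data known. Named beside the 10 genes are the 4 most abundant genes of each pathway list and a set of core pathway genes, and, for Nfkbiz and Tnfaip2, the 4 genes with the highest r; Il6 and Il12b were named after their values were seen. Deviations of same-numbered libraries from their group means had correlations of 0.285, -0.069, -0.4 and -0.124. These 4 values cannot settle whether the numbers pair the libraries. The libraries numbered 1 share code 1290 and those numbered 4 share code 1345. The main fit did not pair them.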

Additional observations from a re-analysis of the deposited data

Results flagged for a closer look

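Among 20 groups of 4 libraries, 1 per gene and treatment, 2 held a library far from the other 3, where chance gives about 1 in 20. Tnfaip2 in Lpcat3 replicate 2 was at 16.1 CPM against 19.2 to 19.5 CPM in the other Lpcat3 livers, a gap of 0.923 of the group's range (above Dixon's 95% critical value for 4 samples). Bcl3 in eGFP replicate 3 was at 56.1 CPM against 20.5 to 25.3 CPM in the other eGFP livers, a gap of 0.865 of the range.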

How the results depend on the processing

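The count of genes past the edgeR test was 1, and it was 3 with library totals, 2 without robust estimation, 0 with no filter, with the replicate block, with a term for the code division and without both libraries numbered 3, 0 to 7 when 1 library was left out (7 without Lpcat3 replicate 1, 2 without Lpcat3 replicate 2 and 0 without any of the others), and 51 with DESeq2; the cause was not tested. Under the replicate block 10 of the 10 genes were lower in the Lpcat3 group and their median log2 fold change was -0.37, whereas a term for the code division gave 9 of 10 and -0.21. The log2 fold change turned positive for Nfkb2 with the code division as a term (0.0187), without eGFP replicate 3 (0.0014) and without both libraries numbered 3 (0.0894), for Nfkbia without eGFP replicate 3 (0.0068) and without both (0.0034), and for Bcl3 without both (0.1367). With library totals the median of all genes was -0.13 and that of the 10 genes -0.54. Without eGFP replicate 4 the groups did not overlap for 4 of the 10 genes (Nfkb1 and Relb added), where 12.0% of all genes did not. When any other single library was left out they did not overlap for 2, where 6.01% to 10.2% of all genes did not. Over the fits leaving out 1 library the lowest log2 fold change was -0.1081 for Nfkbia and -0.3632 for Nfkb2. Over all alternatives Nfkbiz ran from -0.52 to -0.34 and Tnfaip2 from -0.84 to -0.59. Both were selected for groups without overlap, so leaving out libraries could hardly change their sign, and nothing is read from these ranges. The Lpcat3 log2 difference was 1.09 to 1.35 when 1 library was left out and 1.02 without both numbered 3, where 3 against 3 cannot go below an exact permutation p of 0.1.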
